A study of Homo sapiens with 32 samples.

Results

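The 240 genes described here are the protein-coding genes of human chromosome 19 whose symbol is ZNF followed only by digits in GENCODE release 44. They are 240 of the 1476 protein-coding genes of that chromosome and of 20033 on chromosomes 1 to 22, X and Y. The rule uses only name and position and no measured value, but it was set with earlier results of these data known. The measurement is U-DNA-Seq, in which DNA fragments that hold uracil are captured by a tagged uracil-DNA glycosylase made unable to cut, and are sequenced together with the input DNA. The deposited result for each library is a set of regions of uracil enrichment, and the value used for a gene is its covered share, the percent of the bases of its body, from start to end, that lie inside such regions.

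All libraries but 1 came from HCT116, a human colorectal carcinoma line that lacks mismatch repair (MMR). WT cells were untreated and carried no transgene. NT_UGI cells were sorted after retroviral transduction with EGFP and UGI, which blocks the human uracil-DNA glycosylase, and received no drug. 5FdUR_UGI and RTX_UGI cells carried the same transgene. The former were kept for 48 h in 20 µM of the fluorinated nucleoside 5FdUR, and the latter for as long in 100 nM of the antifolate raltitrexed (RTX). The conditions NT_UGI_MMR, 5FdUR_UGI_MMR and RTX_UGI_MMR repeated these 3 in an MMR proficient variant, which carries an added chromosome 3. Each of these 7 conditions had 2 biological replicates, which gave 6 non-treated and 8 drug-treated libraries, and a single library of untreated K562 leukemia cells stood beside them. The transgene was present in every drug-treated library, whereas 2 of the 6 non-treated libraries lacked it.

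Most zinc finger genes of chromosome 19 encode transcription factors that read DNA through tandem zinc fingers, and many of them carry a KRAB domain that recruits the corepressor TRIM28 and, through it, heterochromatin proteins. The genes arose by repeated local duplication and lie in clusters, where their bodies are themselves packed in repressive chromatin in many cell types. Both drugs block thymidylate synthase, the enzyme that makes thymidylate, so that DNA polymerases take up more uracil in place of thymine. Uracil-DNA glycosylase removes such uracil, and UGI prevents the removal. The paper states that the fluorinated nucleoside is also built into DNA itself, and that the capture picks up fluorouracil as well as uracil. After that drug, the regions called uracil regions here may therefore hold either base, whereas raltitrexed is no source of fluorouracil. The part of fluorouracil in the differences between the drugs was not tested.

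A stretch of a finger array shows the repeated unit that these genes share. It is exonic reference sequence of hg38 from ZNF91 at chr19:23359833-23360012, 180 bases printed on the minus strand in the direction of the gene. Capitals mark 2 copies of ACTGGAGAGAAACC, the most frequent 14-base word in the exons of the 240 genes, which encodes part of the linker between neighbouring fingers.
ZNF91: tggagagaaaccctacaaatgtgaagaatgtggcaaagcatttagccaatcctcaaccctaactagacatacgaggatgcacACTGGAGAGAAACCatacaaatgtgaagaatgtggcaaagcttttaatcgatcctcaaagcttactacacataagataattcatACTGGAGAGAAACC

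These letters, searched on both strands as the only motif, occurred in 148 of the 240 gene bodies (61.7%) and in 25 of the other 1236 bodies of chromosome 19 (2.02%). Of windows of 180 bases, 1.39% of those in the zinc finger genes and 0.0651% of those in the other genes held a copy. ZNF208, which lies in the same cluster as ZNF257, held the most, with 22. The 240 genes contained 732 of the 807 copies on the chromosome, and these copies served as markers of the finger arrays. Non-treated libraries covered 6.15% to 10.7% of them, with a mean of 7.86% ± 1.68 (SD, n = 6). RTX libraries covered 1.503%, 2.46%, 4.51% and 3.14%, all below the lowest non-treated library. The 5FdUR libraries covered 0.137% in 5FdUR_UGI replicate 1, 7.24% in replicate 2, and 18.7% and 16.5% in the MMR proficient cells. They thus lay on both sides of the non-treated range. The copies weight the genes unevenly, with a median of 2 per gene, and do not stand for whole gene bodies. Over all bases of the 240 bodies the RTX libraries went the other way, with 4.57% to 5.72% against 3.03% to 3.75% without drug.

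The zinc finger genes were AT-richer and longer than the other genes of chromosome 19. Their median GC content was 43.6%, against 54.0% in the other chromosome 19 genes and 45.3% in all protein-coding genes, and their median body was 25452.5 bp long, against 13985 bp in the other genes. Of the 240, 93 had a GC content below 42% and 37 had 48% or more, whereas of the other 1236 genes 33 and 1056 did.

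The thresholds behind the regions differed between libraries and bear on what follows. The authors chose them so that replicates had about the same total length, and regions covered 10.9% to 11.3% of the genome in the 6 non-treated libraries and 17.1% to 18.9% in the 8 drug-treated ones. The lowest log2 value of a region was 0.25 to 0.33 in non-treated libraries, 0.25 to 0.27 in RTX libraries and 0.25, 0.14, 0.20 and 0.13 in 5FdUR_UGI replicates 1 and 2 and 5FdUR_UGI_MMR replicates 1 and 2. Among the 5FdUR libraries, 5FdUR_UGI replicate 1 stood apart from the other 3, and the totals and counts of calls after 5FdUR are also given without it. Leaving it out, as any single library, leaves its condition with 1 library, which is then assumed to vary like the other conditions.

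Without drug the zinc finger genes carried more uracil regions than the other genes of their chromosome. Their pooled covered share, covered bases over all bases of the 240 bodies, was 3.66% and 3.27% in WT, 3.34% and 3.75% in NT_UGI and 3.46% and 3.03% in NT_UGI_MMR. The 6 libraries thus lay within a narrow range, with a mean of 3.42% ± 0.263 (SD, n = 6). The other chromosome 19 genes had 0.307% to 0.646% in the same libraries, with a mean of 0.471% ± 0.135, and no library of theirs reached the lowest of the zinc finger genes. Both groups lay below the 8.89% ± 0.208 of all protein-coding genes. The K562 library gave 3.43% for the zinc finger genes and 0.302% for the others, and has no replicate.

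The gap to the other chromosome 19 genes was not seen in the total at equal GC content, although single GC classes differed. When the other genes were weighted to the 7 GC classes of the zinc finger genes, their share became 3.23% ± 0.994 (SD, n = 6), with a range of 2.09% to 4.63% that holds all 6 values of the zinc finger genes. In the zinc finger genes below 40% GC, 41 in number, the mean share was 9.72% ± 0.852, against 7.74% ± 4.11 in 11 other genes. At 40% to 42% the means were 4.54% ± 0.623 and 4.25% ± 1.22. At 42% to 44% the zinc finger genes were lower, with 0.414% to 1.15% against 1.42% to 2.84%. They were also lower at 44% to 46%, with 0.720% ± 0.193 against 1.13% ± 0.188. At 46% to 48% the means were 0.263% and 0.271%. In the 15 zinc finger genes at 48% to 52% GC and the 22 above, the share was 0 in all 6 libraries. Across the 240 genes, Spearman's rho of the mean non-treated share with GC content was -0.77, a description over genes that share libraries and clusters.

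**Figure D1:**
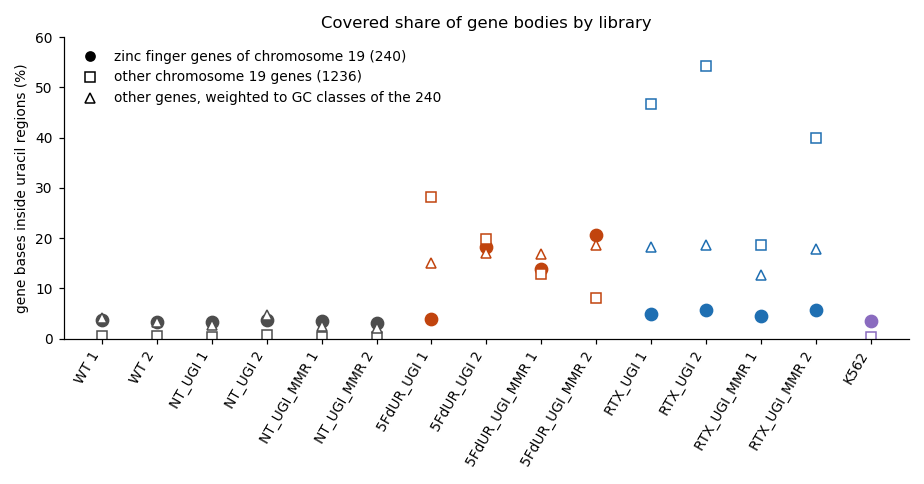
Percent of gene bases inside uracil regions (y axis) in each of the 15 libraries (x axis) for the 240 zinc finger genes (filled circles), the other 1236 chromosome 19 genes (squares) and those genes weighted to the GC classes of the 240 (triangles, HCT116 only). In the RTX libraries the circles lie between 4.57% and 5.72% and the triangles between 12.7% and 18.7%, whereas without drug both lie between 2.09% and 4.63%.

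After RTX the zinc finger genes were far less covered than the other genes of chromosome 19, the reverse of the order without drug. Their pooled share was 5.00% and 5.72% in RTX_UGI and 4.57% and 5.69% in RTX_UGI_MMR, while the other chromosome 19 genes reached 46.8%, 54.2%, 18.6% and 39.97%. All 4 values of the zinc finger genes lay above their non-treated range and below all 4 of the other genes. The means were 5.24% ± 0.556 and 39.9% ± 15.3 (SD, n = 4). Divided by the share of the genome covered in the same library, the zinc finger genes stood at 0.291 ± 0.0249 after RTX and 0.308 ± 0.0246 without drug, and the other genes at 2.21 ± 0.828 and 0.0424 ± 0.0120. Other genes weighted to the same GC classes were lower than all the other genes, at 16.9% ± 2.82 (SD, n = 4). All 4 of these weighted values, from 12.7% to 18.7%, still lay above every RTX value of the zinc finger genes.

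The distance differed between GC classes. At 46% to 48% GC, 25 zinc finger genes were covered to 3.19% ± 0.961 after RTX and 57 other genes to 30.6% ± 6.29 (SD, n = 4). At 44% to 46% the values were 1.90% ± 0.660 for 45 zinc finger genes and 18.8% ± 2.37 for 53 other genes. It was smaller at 42% to 44%, with 0.353% ± 0.371 (40 genes) and 5.57% ± 0.765 (37 genes). It was also smaller at 40% to 42%, with 1.57% ± 0.743 (52 genes) and 7.37% ± 1.16 (22 genes). Below 40% the values were 3.88% ± 0.714 (41 genes) and 16.8% ± 1.15 (11 genes, among them ZNF780A and ZNF780B). All protein-coding genes had 12.3% below 40%, 23.5% at 40% to 42%, 28.4% at 42% to 44% and 33.9% at 44% to 46%. From 40% to 46% the other chromosome 19 genes thus also lay below all protein-coding genes. At 48% GC and above, the 37 zinc finger genes reached 45.1% ± 11.1 and the 1056 other genes 46.6% ± 19.4, and their ranges overlapped. In that group the 15 zinc finger genes at 48% to 52% had 56.4% ± 7.37 against 45.8% ± 15.2, and the 22 above had 30.6% ± 17.0 against 47.0% ± 21.6. The zinc finger genes split after RTX into many with no region and a few with much. Of the 240, 169 were not touched by any region in the 4 RTX libraries, and 21 had a mean share of 50% or more, whereas of the other 1236 genes 178 were untouched and 517 had 50% or more.

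After 5FdUR the zinc finger genes were covered more widely and less evenly between libraries. Their pooled share was 3.96% and 18.2% in 5FdUR_UGI and 13.8% and 20.7% in 5FdUR_UGI_MMR, a mean of 14.2% ± 7.37 (SD, n = 4), or 17.6% ± 3.47 (SD, n = 3) without 5FdUR_UGI replicate 1. The other genes of the chromosome had 28.3%, 19.9%, 12.8% and 8.03% in the same order. The library lowest for the zinc finger genes was the highest for the others, and the reverse. The mean of the zinc finger genes was below that of the others with 5FdUR_UGI replicate 1, by 3.09 points, and above it without that library, by 3.99 points. Only 9 of the 240 genes were untouched in all 4 libraries, and 143 (59.6%) had a mean share of 10% or more, against 38 (15.8%) after RTX and 18 (7.50%) without drug. Without 5FdUR_UGI replicate 1 these counts after 5FdUR were 13 and 152. Among the other chromosome 19 genes 655 (53.0%) had 10% or more after 5FdUR, close to the share of the zinc finger genes, and 949 (76.8%) after RTX.

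These wide shares rested on regions of low enrichment, as did the coverage of other genes in the same libraries. Regions that overlap zinc finger genes had a mean log2 value of 0.243, 0.277 and 0.215 in the 3 5FdUR libraries with wide coverage, and of 0.367 in 5FdUR_UGI replicate 1, 0.376 to 0.425 in RTX libraries and 0.343 to 0.430 in non-treated ones. Regions that overlap the other chromosome 19 genes had 0.275, 0.313 and 0.220 in the same 3 libraries. With only regions of a log2 value of at least 0.25, the 4 5FdUR libraries gave 3.96%, 7.69%, 9.55% and 5.15%. The RTX libraries, whose regions all reached 0.25, gave 4.57% to 5.72%. The regions of the whole genome then came to 510, 314, 418 and 159 Mb in the 5FdUR libraries and 506 to 555 Mb in the RTX libraries. With at least 0.34, the 5FdUR libraries gave 2.50%, 1.25%, 1.24% and 0.0745%, below the 3.47% to 4.29% of the RTX libraries, and non-treated libraries gave 1.49% to 3.52%. At that limit the regions of the whole genome came to 417, 163, 196 and 12.7 Mb in the 5FdUR libraries and 405 to 465 Mb in the RTX libraries. The part of the threshold of each library in the result beyond these limits was not tested.

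The 8 drug-treated libraries were set against the 6 without drug gene by gene, to ask which zinc finger genes gained or lost regions. Two-sided exact permutation tests over the 3003 ways to split the 14 HCT116 libraries, adjusted by the Benjamini-Hochberg method over the 19278 genes with a region in any of them, called 14 zinc finger genes higher and 13 lower after drug. Of the 240, 238 had a region and could be tested. Among all genes tested 34.9% were called higher and 8.68% lower, and among the other chromosome 19 genes 283 of 1201 were higher and 0 lower. The median difference over the 238 was 6.73 points, against 29.8 points in the other chromosome 19 genes and 28.2 points in all genes tested. The values of every drug-treated library lay above every non-treated one for 4 zinc finger genes and below for 2, where the shares over all genes were 15.6% and 5.31%. After division by the chromosome 19 gene share of each library, 16 were higher and 49 lower, and after division by the genome share 14 and 22. Both of these shares were higher after drug, so either division lowers drug-treated values relative to non-treated ones. The shares of all genes called after these divisions are not given here. The count of 14 rises moved with single libraries, to 3 without WT replicate 1 or 2, NT_UGI replicate 1 or NT_UGI_MMR replicate 1 or 2, 4 without NT_UGI replicate 2, 7 without 5FdUR_UGI replicate 1 or RTX_UGI replicate 1 or 2, and 8 without RTX_UGI_MMR replicate 1 or 2, but to 16 without 5FdUR_UGI replicate 2 and 19 without 5FdUR_UGI_MMR replicate 1 or 2. The 13 falls numbered 21 without 5FdUR_UGI replicate 2 and 20 without 5FdUR_UGI_MMR replicate 2. Leaving out any library also lowers the number of splits, which raises the smallest p the test can give. The part of this in the changed counts was not tested.

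The 13 genes with less coverage after drug were AT-rich, with 37.4% to 41.4% GC, and 9 of them lay in the cluster of 37 zinc finger genes at chr19:19668796-24129968, which holds only 3 other protein-coding genes. ZNF257 (chr19:22052430-22091480, plus strand, 38.1% GC) had the largest fall. Its covered share without drug ran from 13.1% over a median of 28.1% to 35.5%. It was 0 in all 4 RTX libraries and in the first replicate of both 5FdUR conditions, 4.35% in 5FdUR_UGI replicate 2 and 5.12% in 5FdUR_UGI_MMR replicate 2. The classes did not overlap, and the difference was -25.3 points (exact permutation p = 0.000333, the smallest these splits allow, adjusted p = 0.0043). In K562 the same gene was covered to 37.6%.

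ZNF85, of the same cluster, was covered to 20.4%, 24.0% and 29.8% without drug (lowest, median and highest). It had 0, 14.6%, 2.18% and 19.6% in the 5FdUR libraries and 0 in every RTX library. The classes did not overlap here either, and the difference was -20.2 points (exact permutation test, adjusted p = 0.00631). The 4 next largest falls were also at 0 in every RTX library, with coverage left in 1 or 2 of the 5FdUR libraries. ZNF100 went from a mean of 20.3% ± 3.69 (SD, n = 6) to 2.76% ± 5.76 (SD, n = 8), ZNF726 from 20.2% ± 4.94 to 3.16% ± 8.29, ZNF681 from 17.9% ± 5.17 to 2.66% ± 7.52 and ZNF253 from 15.8% ± 10.3 to 0.391% ± 1.11. Their adjusted p values in the exact permutation test were 0.0076, 0.0182, 0.0171 and 0.0154. In each of these 4 the classes overlapped, through 1 or more libraries. ZNF208, which holds the most linker copies, fell from 9.62% ± 3.60 to 1.58% ± 2.84 (adjusted p = 0.0101 in the exact permutation test).

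The 14 genes with more coverage after drug had 45.5% to 57.9% GC and lay in 7 clusters. ZNF541 (chr19:47520690-47573148, minus strand, 48.4% GC), which encodes a germ cell protein required in meiosis, had the largest rise. It was at 0 in all 6 non-treated libraries and at 100%, 96.2%, 99.4% and 98.7% in the RTX libraries. The 5FdUR libraries gave 94.7%, 34.4%, 0 and 0, so that the classes overlapped in the MMR proficient 5FdUR cells. The difference was 65.4 points (exact permutation test, adjusted p = 0.0345).

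ZNF473, whose product takes part in the processing of histone pre-mRNA, was the only 1 of the 6 largest rises whose classes did not overlap. It was at 0 without drug, at 88.8%, 41.2%, 32.8% and 15.5% after 5FdUR and at 38.7%, 48.1%, 79.1% and 82.7% after RTX, so that every drug-treated library exceeded every non-treated one (difference 53.4 points, exact permutation test, adjusted p = 0.00868). ZNF526 rose by 56.9 points, ZNF324 by 53.7, ZNF556 by 50.1 and ZNF865 by 40.7 (adjusted p = 0.0265, 0.0155, 0.0345 and 0.0265 in the exact permutation test). All of these were at 0 in the 6 non-treated libraries and also at 0 in at least 1 5FdUR library, and ZNF526 was at 12.6% in RTX_UGI_MMR replicate 1, where the other RTX libraries had 98.6% to 100%.

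**Figure D2:**
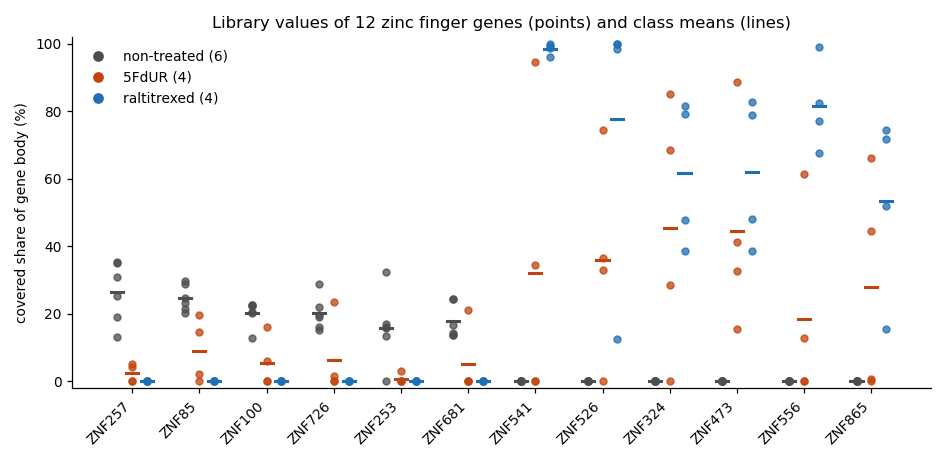
Covered share of the gene body (y axis, percent) of the 6 zinc finger genes with the largest called fall and the 6 with the largest called rise (x axis), with a point for each HCT116 library and a line at the mean of each class. The RTX points of the 6 falls all lie at 0, and the non-treated points of the 6 rises all lie at 0.

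The drugs were compared directly with a model over all genes, limma on the arcsine square root of the covered share with the 7 conditions as groups. It called 116 zinc finger genes higher after 5FdUR than after RTX and 25 lower at an adjusted p under 0.05, where 21.6% of all genes tested were called higher and 44.7% lower. In the other chromosome 19 genes the counts were 182 and 662 of 1201. The median difference, 5FdUR minus RTX, was 10.1 points over the 238 zinc finger genes, -28.7 points in the other chromosome 19 genes and -11.1 points in all genes tested. Without 5FdUR_UGI replicate 1 the counts of zinc finger genes were 143 and 27. Of the 34 genes named by rule, 0 lost their call in that fit, and ZNF99, ZNF382, ZNF473, ZNF681 and ZNF726 gained one. Where only regions with log2 values from 0.25 upwards were kept in all libraries, 32 zinc finger genes were higher and 27 lower. From 0.34 upwards they were 1 and 20. All regions of the RTX libraries reached 0.25, so of the 2 drugs that limit removed regions only after 5FdUR. A fall of the higher count at 0.25 therefore followed from the thresholds, and no conclusion is drawn from it. The shares of all genes called at these limits are not given here.

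The genes higher after 5FdUR were most frequent in the cluster at chr19:51571283-53580269, where 36 of 39 zinc finger genes were called higher and none lower. No RTX library had a region in any of these 39 genes. The span also holds 15 other coding genes, and the pattern was not limited to zinc finger genes. SPACA6, HAS1, FPR1, FPR2, FPR3 and PPP2R1A had means of 65.6%, 61.9%, 47.1%, 50.4%, 29.9% and 35.8% after 5FdUR and 0 after RTX. VN1R4 had 0 after both drugs. The cluster's pooled share was 2.12% and 36.7% in 5FdUR_UGI and 24.8% and 47.4% in 5FdUR_UGI_MMR, and 0.741% to 1.65% without drug. All 39 had a mean share of at least 10.8% after 5FdUR, or 14.4% without 5FdUR_UGI replicate 1, the highest over all 4 libraries being ZNF415 with 48.5%. ZNF415 was at 0, 82.1%, 41.3% and 70.6% in the 5FdUR libraries and at 0 in all others (limma, adjusted p = 0.0128). ZNF578 was at 12%, 59.6%, 46.6% and 69.8% after 5FdUR, at 0 after RTX and at most at 4.89% without drug (limma, adjusted p = 0.00027). ZNF350, a repressor known as a partner of BRCA1, was at 0, 33.8%, 35.5% and 59.1% after 5FdUR and at 0 in the 10 other HCT116 libraries (limma, adjusted p = 0.00349). ZNF432 (24.3% ± 15.3 after 5FdUR, SD, n = 4) and the imprinted ZNF331 (11.9% ± 8.64) were also called, with 0 after RTX (limma, adjusted p = 0.00126 and 0.00565).

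The cluster of 37 genes around ZNF257 was nearly free of regions after RTX, with 35 of the 37 at 0. Its pooled share was 6.84% to 9.85% without drug, 0 in RTX_UGI replicate 1 and RTX_UGI_MMR replicate 2 and 0.0347% and 0.116% in the other RTX libraries. RTX against no drug, by limma with the UGI cells as controls, called 20 of the 37 lower and none higher. Over all genes tested, 11.6% were called lower and 60.7% higher in that comparison. 5FdUR gave 0.0684%, 14.1%, 3.60% and 9.75%, which spans the non-treated range. ZNF91 and ZNF93, which repress SVA and LINE-1 retrotransposons, lie here. ZNF91 had 2.65% to 7.29% without drug, 0, 2.76%, 5.19% and 17.2% after 5FdUR and 0 after RTX, and was called lower after RTX than without drug (limma, adjusted p = 0.00926). ZNF93 had 0 to 8.31% without drug and 0, 4.94%, 8.31% and 16.9% after 5FdUR, and its 0 after RTX was not called against no drug (limma, adjusted p = 0.148). ZNF43 and ZNF99 of the same cluster were at 0 in all RTX libraries and were called lower after RTX than without drug (limma, adjusted p = 0.0471 and 0.0484).

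Another cluster, 24 genes at chr19:36182276-37817300, was similar, with 3.01% to 5.89% without drug, 0 to 0.573% after RTX and 0.0954%, 24.9%, 7.55% and 17.2% after 5FdUR. ZNF420, an inhibitor of p53-dependent apoptosis, had 3.35% to 8.65% without drug, 0 after RTX and 0, 25.7%, 26.2% and 24.7% after 5FdUR. It was called higher after 5FdUR than after RTX (limma, adjusted p = 0.00628). ZNF382, a candidate tumour suppressor, had a region only in 5FdUR_UGI replicate 2 and 5FdUR_UGI_MMR replicate 2, at 22.5% and 8.19% (limma, 5FdUR against RTX, adjusted p = 0.121). ZNF146, which consists almost entirely of fingers, was at most at 13.7%, in RTX_UGI replicate 2.

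The largest cluster, 57 genes at chr19:55476617-58481230, was mixed, with 28 genes called higher and 6 lower after 5FdUR than after RTX. ZNF787 had 35.5%, 92.4%, 66.7% and 37.8% after 5FdUR and 0 in the other 10 HCT116 libraries (limma, adjusted p = 0.000286). Its neighbour ZNF444, an activator of a scavenger receptor gene, had 60.4%, 91.2%, 33.2% and 35.7% after 5FdUR and 0.707% to 11.7% after RTX, and was at 0 without drug (limma, adjusted p = 0.000123). At the far end of the same cluster ZNF132 showed the opposite, at 100%, 100%, 69.3% and 100% after RTX and 0 elsewhere (limma, adjusted p = 7.12e-06). ZNF274, a zinc finger protein that brings the methyltransferase SETDB1 to zinc finger genes, had 0, 0, 25.1% and 28.5% after 5FdUR and at most 9.50% after RTX (limma, adjusted p = 0.269). ZNF154, whose promoter is often methylated in tumours, had 0, 3.12%, 16.4% and 20.1% after 5FdUR and 0 after RTX (limma, adjusted p = 0.00147).

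Zinc finger genes with high coverage after RTX lay mostly outside these clusters. The 5 genes at chr19:2819868-2944971 were covered to 50.9%, 70.4%, 45.7% and 84.4% after RTX, and 4 of them were called lower after 5FdUR than after RTX. ZNF77 among them had 98.3%, 72.8%, 55.2% and 94.0% after RTX and 27.2%, 10.2%, 0 and 0 after 5FdUR (limma, adjusted p = 0.000156). ZNF114 had 86.3%, 100%, 46.3% and 75.4% after RTX and at most 2.97% elsewhere (limma, adjusted p = 1.57e-05). In the cluster of 24 genes at chr19:43525497-45076478, where 7 genes were lower and 5 higher after 5FdUR than after RTX, ZNF283 was an AT-rich exception. With 38.8% GC, it was covered to 13.4% to 23.1% without drug and to 74.9%, 86.6%, 94.4% and 98.8% after RTX, above all of its non-treated values, and to 24.2%, 0, 0 and 5.67% after 5FdUR (limma, 5FdUR against RTX, adjusted p = 4.18e-05). ZNF224 in the same cluster, a repressor of aldolase A, was covered to 70.1% in 5FdUR_UGI_MMR replicate 1 and to at most 3.22% in any other HCT116 library, and was not called (limma, 5FdUR against RTX, adjusted p = 0.129).

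**Figure D3:**
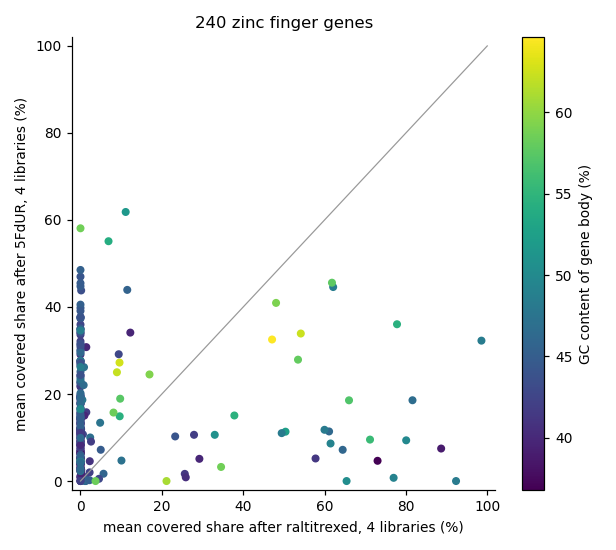
Mean covered share of each of the 240 zinc finger genes after RTX (x axis, percent, 4 libraries) and after 5FdUR (y axis, percent, 4 libraries), coloured by GC content, with the line of equal shares. Among them are 169 genes at 0 after RTX, and ZNF132 and ZNF541 lie at the far right, at 92.3% and 98.6%.

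Against the non-treated UGI cells, limma called 100 zinc finger genes higher and 12 lower after 5FdUR (44.3% and 9.96% of all genes tested), and 38 higher and 31 lower after RTX (60.7% and 11.6%). Both comparisons share the 4 NT_UGI and NT_UGI_MMR libraries. The median difference over the 238 was 10.6 points after 5FdUR and 0 after RTX, beside 12.04 and 43.9 points in the other chromosome 19 genes and 14 and 32.2 points in all genes tested. Without 5FdUR_UGI replicate 1, 121 were higher after 5FdUR. Of the 12 lower after 5FdUR, 8 lay in the cluster of 37 genes. Without NT_UGI replicate 1, NT_UGI replicate 2, NT_UGI_MMR replicate 2 or 5FdUR_UGI replicate 1 they numbered 6, 7, 6 and 7, and without 5FdUR_UGI replicate 2 they numbered 21.

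MMR status was compared within each treatment. After 5FdUR, 51 zinc finger genes were higher and 14 lower in MMR proficient than in deficient cells (limma, adjusted p under 0.05), where 8.92% and 20.4% of all genes tested were called. The median difference was 5.77 points, against -11.3 points in the other chromosome 19 genes and -3.65 points in all genes tested. Of the 51, 25 lay in the cluster of 57 genes and 9 in that of 39. These counts moved with single libraries, to 99 higher without 5FdUR_UGI replicate 2, to 29 lower without 5FdUR_UGI replicate 1, where 43 were higher, and to 4 lower without 5FdUR_UGI_MMR replicate 2. In each of these fits 1 side of the comparison had a single library, and its spread came from the other conditions. With the limit of 0.34 on the log2 value, 0 were higher and 1 was lower (limma). After RTX, 3 zinc finger genes were higher and 3 lower (2.97% and 8.18% of all genes tested), and at an unadjusted p under 0.05 they were 8 and 11. Without drug limma called 0 in either direction (0.0104% of all genes tested in each), and 0 also at an unadjusted p under 0.05.

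Other families were set beside them, to compare zinc finger genes elsewhere with other clustered genes of the chromosome. The 236 ZNF genes of other chromosomes had 5.42% ± 0.163 without drug (SD, n = 6), 19.6% ± 1.73 after 5FdUR and 22.98% ± 1.53 after RTX (SD, n = 4). Their RTX values, all at or above 20.9%, lay above every RTX value of the 240, although their median GC content of 43.0% was close. On chromosome 19, 15 genes with other zinc finger names (ZFP, ZSCAN or ZIM with digits, and PEG3) had 16.7% ± 10.2 after 5FdUR and 1.68% ± 1.34 after RTX. ZNF symbols that end in a letter, and readthrough genes, are in neither set and count among the other chromosome 19 genes. After RTX, ZNF780A, ZNF780B and ZNF324B had means of 94.3%, 38.7% and 42.3%, and ZNF585A, ZNF585B and ZNF587B had 0. The 17 LILR and KIR genes, immune receptors that lie between the clusters of 39 and 57 zinc finger genes, had 33.3% ± 16.1 after 5FdUR and 1.10% ± 0.790 after RTX, and 16 of them were called higher after 5FdUR than after RTX. The 15 KLK genes, a family of serine proteases, had 45.01% ± 30.7 and 64.98% ± 27.9, with 0 called higher and 2 lower after 5FdUR than after RTX by limma, and 10 higher after 5FdUR than without drug. In the comparison of 5FdUR with RTX limma called 6 of 10 SIGLEC genes, 13 of 22 CEACAM and PSG genes and 9 of 19 olfactory receptor genes higher, shares of 60%, 59.1% and 47.4%. The 116 of 238 zinc finger genes were 48.7%. In the same comparison 3 SIGLEC genes (30%), 5 CEACAM and PSG genes (22.7%) and 1 olfactory receptor gene (5.26%) were called lower. So were 25 zinc finger genes (10.5%). Over all genes tested 21.6% were called higher and 44.7% lower.

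Genes for the partners of KRAB zinc finger proteins were mostly covered after RTX. Of 15 such genes, 12 were higher and 2 lower after RTX than without drug, and 10 were lower and 1 higher after 5FdUR than after RTX (limma, adjusted p under 0.05). Over all genes tested the shares were 60.7% higher and 11.6% lower in the former comparison and 44.7% lower and 21.6% higher in the latter, so that the partners moved in the direction most often called over all genes. SETDB1 was at 0 without drug and at 100%, 100%, 79.0% and 100% after RTX. TRIM28, itself at the end of chromosome 19 with 59.3% GC, was at 0 without drug, at 100%, 90.4%, 0 and 60.4% after RTX and at 79.9%, 60.4%, 0 and 0 after 5FdUR. ATF7IP, at 36.1% GC, had less coverage after drug, with a mean of 28.0% ± 6.08 (SD, n = 6) without drug and 0 in all RTX libraries. ATRX (37.7% GC) also fell, from a mean of 10.1% without drug to 3.10% after RTX. Other AT-rich partners went the other way. TASOR (38.7% GC) rose from 3.99% to 65.3% after RTX, PPHLN1 (39.8%) from 7.66% to 22.3% and CBX3 (41.4%) from 2.01% to 85.6%.

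The promoters of the zinc finger genes, taken as 250 bp before to 50 bp after the start, were rarely inside regions without drug. Between 0 and 1 of the 240 promoters had a covered base in each non-treated library. After RTX 21, 18, 6 and 15 did, from 2.50% to 8.75%, whereas 134 to 622 of the 1236 other promoters did. After 5FdUR 20, 92, 44 and 58 zinc finger promoters did, and 423, 305, 147 and 101 of the others. With this window in place of the gene body, the exact permutation test called 0 zinc finger genes in either direction between drug-treated and non-treated libraries. The share of all genes called in this window is not given here, so the 0 cannot be read as particular to these promoters.

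Replicates resembled each other to different degrees over the 240 genes. Pearson's r of the covered shares between the replicates of a condition, across genes and with no test, was 0.63 to 0.72 in the non-treated conditions, 0.92 in RTX_UGI, 0.76 in RTX_UGI_MMR, 0.42 in 5FdUR_UGI_MMR and 0.28 in 5FdUR_UGI. 5FdUR_UGI replicate 1 correlated with the RTX libraries at 0.30 to 0.61. Over the other chromosome 19 genes the order was the reverse, with 0.64 to its own replicate and 0.23 to 0.34 to the RTX libraries.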

How the data were processed

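The authors deposited, for each enriched library, the positions of regions (GRCh38) and a log2 value per region. Reads had been aligned by the authors with BWA (0.7.17-r1194 in the submitters' processing notes), and duplicates, ambiguously mapped reads and blacklisted segments, low mappability included, had been removed. Smoothed coverage in 100 bp bins (deepTools 3.2.1) gave log2 ratios over the input, and bins above a limit set per library were joined. The value column is unnamed and was taken for the mean log2 ratio. Removal of ambiguous reads can leave repeated finger arrays without regions. The files hold no read depth, so only the spread between libraries measures precision. Input, mock, coverage and peak data were not used here.

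Covered shares were computed for 20033 protein-coding genes of GENCODE release 44 from 15 single-library files, with 7 merged files as an alternative. The 19278 genes with a region in any HCT116 library were tested by exact permutation (3003 splits, two-sided) or limma 3.58.1 (R 4.3.3), with Benjamini-Hochberg adjustment. Data were simulated for drug-treated against non-treated libraries over 19278 genes. Permutation recovered 136 and limma 127 of 200 genes changed by 30 points, and each called 5 unchanged genes. Shares were drawn around a single mean per gene, so neither the drugs nor MMR status differed. Changed genes were taken only from those of intermediate mean share. These counts therefore say nothing about genes mostly at 0, about data where many genes change or about the comparisons between drugs and of MMR status. GC classes had limits at 40%, 42%, 44%, 46%, 48% and 52%. Clusters are runs of zinc finger genes with gaps of at most 1 Mb. P-values measure only the spread between the libraries.

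Genes named are the 6 largest called falls and rises after drug, the 4 with the highest share without drug, the 4 largest called differences each way between 5FdUR and RTX, 16 genes listed for known roles or position, and called genes among 15 partners. Other names were chosen after their values were seen, and the members and lists with earlier results of these data known. Alternatives were regions of at least 5 kb, common log2 limits, merged files, bases in both replicates, other windows, scalings, tests and subsets of libraries. The limit of 0.25 was added after seeing the data. Calculations used Python 3.11.15, NumPy 2.4.6 and matplotlib 3.10.9. Sequences of some covered stretches are not reported here.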

Additional observations from a re-analysis of the deposited data

Results flagged for a closer look

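5FdUR and RTX differed in the zinc finger genes by the test of the difference itself, with 116 genes called higher after 5FdUR and 25 called lower (limma, adjusted p under 0.05), where 21.6% and 44.7% of all genes tested were. At common log2 limits of 0.25 and 0.34 the higher genes numbered 32 and 1. The limit of 0.25 removed no region of the RTX libraries.

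Single libraries lay far from the rest of their class for 15 of the genes named in the text, in 23 of 107 groups examined. Chance flags about 1 in 20 groups of independent, continuous values, but that figure does not apply here, since many of these groups are mostly 0, the drug-treated and 5FdUR groups share libraries and the genes were partly named for large values. The test asks whether the gap of the highest or lowest library to its nearest neighbour takes up most of the range of the class. 5FdUR_UGI replicate 2 was the highest of the drug-treated or 5FdUR libraries for ZNF99 (16.9%), ZNF114 (2.97%), ZNF208 (8.27%), ZNF253 (3.13%), ZNF382 (22.5%), ZNF681 (21.3%) and ZNF726 (23.6%). 5FdUR_UGI_MMR replicate 2 was the highest for ZNF91 (17.2%) and ZNF100 (16.02%), and 5FdUR_UGI_MMR replicate 1 for ZNF224 (70.1%). 5FdUR_UGI replicate 1 was the lowest 5FdUR library for ZNF420, at 0, where the nearest other library had 24.7%. RTX_UGI_MMR replicate 1 was the lowest RTX library for ZNF132 (69.3%) and ZNF526 (12.6%), and RTX_UGI replicate 2 the highest drug-treated library for ZNF146 (13.7%). Without drug, WT replicate 2 was the lowest for ZNF100 (13.01%) and the highest for ZNF154 (1.55%) and ZNF224 (3.22%), and NT_UGI_MMR replicate 2 was the highest for ZNF146 (3.31%).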

How the results depend on the processing

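Drug-treated against non-treated libraries gave 14 zinc finger genes higher and 13 lower. The counts were 1 and 2 with regions of at least 5 kb, 0 and 23 with log2 values of at least 0.34, 0 and 0 in the promoter window, 14 and 22 after division by the genome share, 24 and 21 without the condition 5FdUR_UGI_MMR and 88 and 22 by limma. Higher genes numbered 8 in exons, 28 with 5 kb on both sides and 1 without the condition WT, and lower genes 49 after division by the chromosome 19 gene share. Leaving out single libraries gave 3 to 19 higher and 11 to 21 lower. The median difference over all 240 genes, 6.55 points, was 0.364 with bases called in both replicates. Shares of all genes called are not given for the alternatives in this section.

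For 5FdUR against RTX, 116 higher became 33 with regions of at least 5 kb, 1 at 0.34 and 32 at 0.25, and 86 to 143 without single libraries, with 21 to 30 lower. For 5FdUR against no drug, 100 higher and 12 lower became 33 and 2 with regions of at least 5 kb, 1 and 23 at 0.34 and 28 and 25 at 0.25, with 7 lower without the transform, and 71 to 121 and 6 to 21 without single libraries. For RTX against no drug, 38 higher and 31 lower became 5 lower with regions of at least 5 kb, 21 higher at 0.34 and 16 lower without the transform, with 35 to 41 and 22 to 44 without single libraries. For MMR status after 5FdUR, 51 higher and 14 lower became 16 and 6 with regions of at least 5 kb, 0 and 1 at 0.34 and 15 and 6 at 0.25, with 22 lower with 5 kb on both sides and 8 lower without the transform, and 43 to 99 and 4 to 29 without single libraries. For MMR status after RTX, 3 and 3 became 5 lower with regions of at least 5 kb, 9 lower with 5 kb on both sides, 6 lower without the transform and 1 higher after division by the genome share, with 0 to 6 and 2 to 12 without single libraries. MMR status without drug gave 0 in all of these limma fits.

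The replicate numbers did not pair the samples, since over 21 pairs of conditions the deviations of same-numbered replicates correlated at -0.14 to 0.083. With a replicate block the exact permutation test called 9 genes higher and 13 lower after drug, and limma called 1 higher for MMR status after RTX. The block moved no other count by over 1.5 times.

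Over the genes as a whole, the non-treated share of 3.42% was 0.915% with regions of at least 5 kb, 2.71% at 0.34, 2.82% in merged files and 0 as a median over genes, and its excess over the other genes was 0.833, 2.35, 2.45 and 0 points, and 0.188 points at equal GC content. Without single libraries these were 3.35% to 3.50% and 2.92 to 2.99 points. The 5FdUR share of 14.2% was 1.26% at 0.34 and 6.59% at 0.25, and 11.99% to 17.6% without single libraries. Its difference from the other genes, -3.09 points, was 2.61 as a median over genes and -8.34 to 3.99 without single libraries. The RTX share of 5.24% was 4.14% with regions of at least 5 kb, 3.93% at 0.34 and 0 as a median, and 5.09% to 5.47% without single libraries, and its difference was -11.6 points at equal GC content and -41.5 to -30.0 without single libraries. The K562 share was 1.07% with regions of at least 5 kb and 0 as a median. In the promoter window the differences after drug were 22.04 points for ZNF85, 12.5 for ZNF100, ZNF208 and ZNF681 and 5.92 for ZNF257, and after division by the chromosome 19 gene share -2.94 for ZNF93, -15.0 for ZNF283 and -5.12 for ZNF420 (in multiples of that share). Where no value above shows the cause of a change, the cause was not tested. Fewer regions enter at the higher limits by construction.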
